A study of Mus musculus with 10 samples.

Results

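The genes described here are the ligands and receptors of axon guidance: the semaphorins with their plexin and neuropilin receptors, the Slits with their Robo receptors, the ephrins with the Eph receptors, and the netrins with Dcc, Neo1 and the Unc5 receptors. Within these families, which were picked with earlier results of these data known, members were taken by gene name and not by their values: 70 of the 55416 genes of the count table are protein-coding genes of the 9 families. There were 35 ligands and 35 receptors. The study pulled down RNA from mouse pituitary with antibodies to Musashi1 and Musashi2 and sequenced it beside a control pull-down, which addresses the question of which pituitary mRNAs the Musashi proteins hold. Each lysate pooled 6 pituitaries of sighted FVB mice (FVB.129P2-Pde6b+Tyrc-ch/Ant) aged 8 to 10 weeks, called control pituitaries in the labels. Equal portions went to a mixture of the Musashi1 and Musashi2 antibodies (Musashi IP, 5 libraries) or to rabbit IgG (IgG, 5 libraries), so that each lysate gave 1 library of each kind. Lysates 2, 5 and 6 came from females and lysates 3 and 7 from males, and lists of 5 values below always follow the order 2, 3, 5, 6 and 7. The antibodies were mixed, so Musashi1 and Musashi2 cannot be told apart.

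Guidance ligands are secreted or membrane-bound cues that bind receptors on neighbouring or migrating cells, and they attract or repel a growing axon or a moving cell. Outside the nervous system the same families act in blood vessel growth, epithelial boundaries and organ formation. Musashi proteins bind short motifs, mainly in the untranslated region (UTR) that follows the coding sequence of an mRNA, and change how much protein the mRNA yields; Robo3 mRNA is a target described in the developing brain. The RNA-binding signal here is the ratio of Musashi IP to IgG in one lysate, and it says nothing of translation.

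Depth averaged 7.62 ± 1.08 M counts in IgG and 10.4 ± 1.89 M in Musashi IP (SD, n = 5), from 6.67 to 13.02 M per library. The 70 genes held 0.285% to 0.313% of the counts of a library. Levels are given as CPM (read counts scaled to a common library size, with edgeR's TMM factors). They are levels of RNA recovered in a pull-down, and no library of RNA before the pull-down was used here. Prl, Gh, Pomc, Cga and Tshb, which mark hormone cells of the anterior pituitary, were present in every library, whereas Lhb had 0 counts in all 10. One library stood apart in endothelial markers. The summed level of 8 endothelial markers was 362 CPM in IgG 2 against 83.0 to 161 CPM in the other IgG libraries. The Musashi IP libraries held 76.3 to 155 CPM, and the lowest was Musashi IP 2, from the same lysate as IgG 2. IgG 2 was also the highest IgG library in the summed markers of mural cells and fibroblasts (1304 CPM against 295 to 664). The same held for erythroid cells (1254 against 463 to 656) and hormone cells (51460 against 13021 to 23136). For these lists Musashi IP 2 was likewise the highest Musashi IP library, at 882, 691 and 39865 CPM. Between lysates, a lower level in bulk samples can reflect fewer cells of a type or less RNA per cell, which cannot be told apart. Within a lysate both libraries came from the same cells, and the cause of the endothelial difference in lysate 2 was not tested.

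Of the 70 genes, 62 had enough counts to be tested. The other 8 (Efna2, Efna3, Efna4, Epha8, Ntn5, Sema3c, Sema3g and Sema5b) had between 8 and 102 counts over all 10 libraries, at most 1.10 CPM on average. Levels per kilobase (kb) of exon in the IgG libraries covered a wide range among the tested genes. The receptors led: Plxnb1 stood at 31.1 ± 3.98 CPM per kb, Plxna3 at 27.1 ± 2.86, Plxnb2 at 22.8 ± 3.08 and Neo1 at 21.3 ± 2.05 (mean ± SD, n = 5). Within these 4, neighbours in the order differed by less than the sum of their SDs. Below them came Unc5a at 11.0 ± 2.22 CPM per kb, Plxna4 at 10.4 ± 7.84, Robo2 at 10.1 ± 2.52 and Sema4b at 9.84 ± 1.05, whose means did not differ beyond their spread. Slit2, at 7.35 ± 1.64 CPM per kb, and Efna5, at 6.87 ± 1.19, followed Sema4b among the ligands. Unc5d (0.230 ± 0.0889 CPM per kb) and Plxnb3 (0.227 ± 0.0903) were the lowest of those tested.

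Against IgG, 13 of the 62 tested genes were higher in the Musashi IP (21%) and 2 were lower (3.23%), at an adjusted p under 0.05 in edgeR's quasi-likelihood test with the lysate as a block. Over all tested protein-coding genes the shares were 25.7% higher and 4.01% lower, and over all tested genes 18.5% and 8.4%, so the families as a whole sat near the background. Their median log2 fold change was 0.14, beside 0.09 for protein-coding genes and -0.07 for all genes. All 5 lysates gave a higher Musashi IP value for 19 of the 62, beside 31.1% of protein-coding genes. In 4 (Efna5, Unc5a, Sema4b and Ephb2) every Musashi IP library lay above every IgG library, beside 13.6% of protein-coding genes, and in none did every Musashi IP library lie below, beside 1.35%. The ligands held 8 higher and 1 lower of 28 tested, and the receptors 5 higher and 1 lower of 34. The families differed from each other in their counts: 4 of 5 ephrins and 3 of 6 netrin receptors were higher, but 1 of 13 Eph receptors, 1 of 9 plexins and 0 of 4 Robos. These differences between families were not tested.

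**Figure D1:**
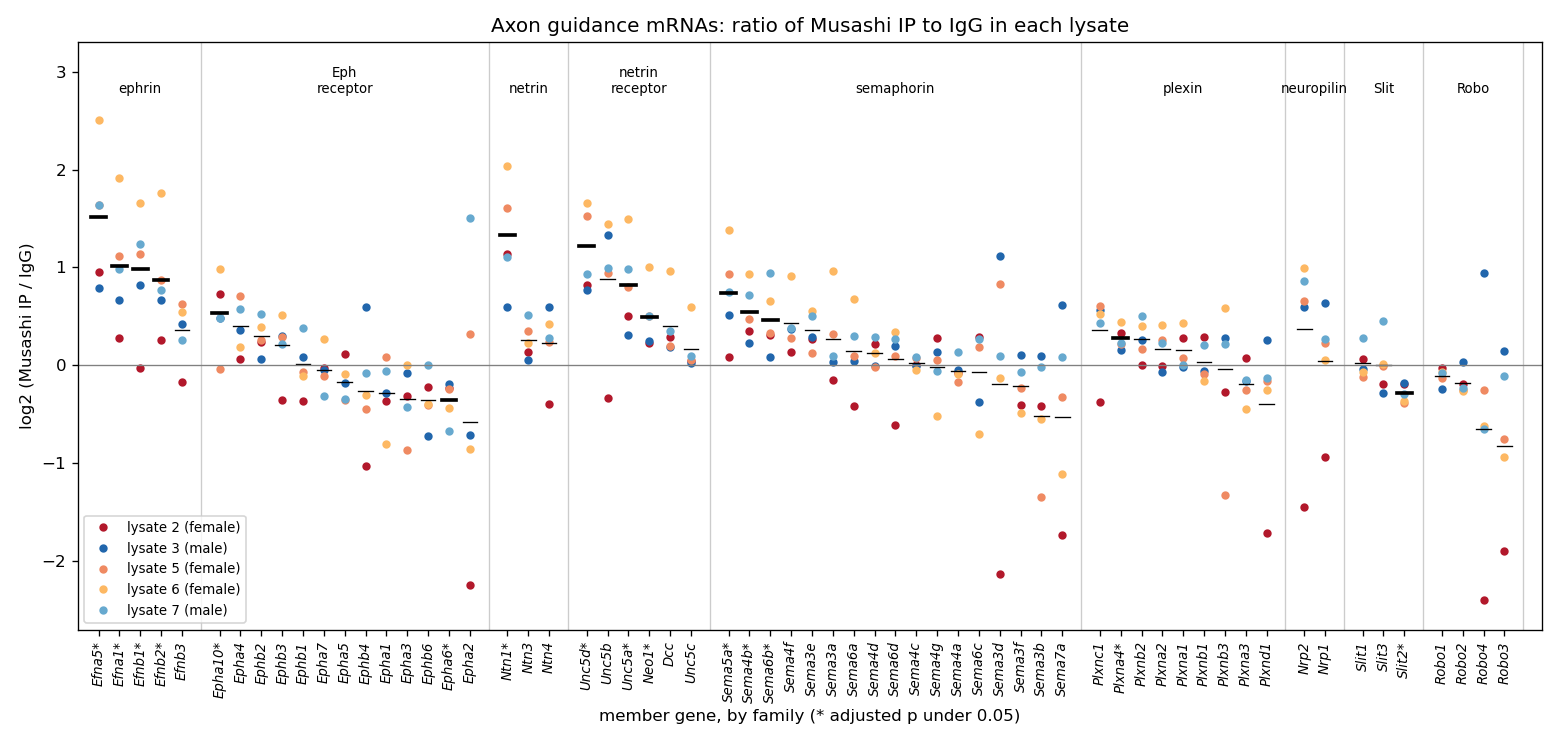
Log2 ratio of Musashi IP to IgG (y axis) for each of the 62 tested genes (x axis, by family), with 1 point per lysate, coloured by lysate, and a bar at the fitted log2 fold change, thick where the adjusted p was under 0.05. Most ephrin points and those of Unc5a, Unc5d and Ntn1 lie above 0, and lysate 6 gives the top point for 12 of the 13 higher genes.

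Stretches of the UTR with Musashi motifs are shown for the genes that carry the comparison: 7 that were higher, then Slit2, which was lower, and Robo3, the described target. The motifs searched were GTAGT or GTTAGT or GTTTAGT, or else ATAGT or ATTAGT or ATTTAGT, on the sense strand only and with overlapping matches counted, in the longest annotated UTR downstream of the coding sequence. Each window is 30 bases, 5′ to 3′ along the mRNA and written as DNA, with motif matches in capitals, from GENCODE M21 transcripts on GRCm38. It is the window with the most matches, or the most upstream where windows tie.
Efna5 (chr17:62605236-62605265, minus strand): gcctcaaagatATAGTTAGTcctctcccct
Efnb1 (chrX:99147619-99147648, plus strand): acctttgtATTTAGTtttGTAGTttcttgg
Efnb2 (chr8:8620452-8620481, minus strand): tctggacagttttGTAGTctgtagcttttc
Ntn1 (chr11:68211190-68211219, minus strand): agggttgggtgggATAGTggttaccactga
Unc5d (chr8:28648329-28648358, minus strand): tggctATTAGTcactagtgtGTAGTactgt
Sema5a (chr15:32695147-32695176, plus strand): gggtttaagaaATTAGTAGTgtgttctatg
Neo1 (chr9:58875898-58875927, minus strand): gcagaggacagagATAGTggaaagagggtc
Slit2 (chr5:48304467-48304496, plus strand): acacttggaggcATTAGTgaagcggtgggt
Robo3 (chr9:37417113-37417142, minus strand): ggatgaggaaaaaGTAGTgtctgggtgctc
In Efna5 the motifs ATAGT and GTTAGT share letters, and in Sema5a ATTAGT and GTAGT do. Efnb1 and Unc5d each had a pair of separate matches in 1 window. The whole UTR held 12 matches in Efna5 (3158 nt), 11 in Unc5d (6051 nt) and 9 in Sema5a (6926 nt). Efnb1 (1464 nt), Efnb2 (3154 nt) and Ntn1 (3642 nt) held 4 each, Slit2 (3492 nt) held 5, Neo1 (2587 nt) held 2 and Robo3 (736 nt) held 1. The choice of transcript mattered for Robo3 and Slit2. In the UTR of the transcript with the longest coding sequence, Robo3 held 0 matches (343 nt) and Slit2 held 3 (1270 nt). The counts of the 7 higher genes were the same there.

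Among the 62 tested genes, matches were about as frequent in those that were higher as in the others. Of the 13, 10 had at least 1 match (76.9%), and Efna1, Unc5a and Sema6b, which were also higher, had none. The share was 71.0% over the 62 tested and 74.6% over all tested protein-coding genes with a UTR of at least 100 nt, whose median UTR was 1444 nt against 1871 nt for the 62. Per kb of UTR the median was 1.27 matches in the 13 and 1.25 in the 47 that did not pass the test. Over all protein-coding genes that were higher it was 1.67, and over those that were not, 1.31. The share with at least 1 match was 87.9% in the former and 69.9% in the latter, whose median UTRs were 2160 and 1187 nt. Epha5 held the most matches, 19, with a log2 fold change of -0.17 (adjusted p = 0.231). A match is a string of letters, and binding at it was not measured.

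Ephrins, the membrane-bound ligands of the Eph receptors, were the family with the largest share of higher genes, 4 of 5 tested, and a median log2 fold change of 0.99. Efna5, a ligand anchored to the membrane by a lipid, had 35.2, 29.0, 26.6, 25.2 and 22.5 CPM in IgG and 68.2, 50.2, 83.3, 145 and 70.7 CPM in Musashi IP. Every Musashi IP library lay above the highest IgG library, and lysate 6 gave the widest gap. That was a log2 fold change of 1.51 ± 0.23 (SE), adjusted p = 0.0042, the largest of the 62. Efna1, the other tested A-class ephrin, which acts in vessel growth, had 19.2, 5.96, 8.60, 9.67 and 6.06 CPM in IgG and 23.4, 9.60, 18.9, 37.2 and 12.2 CPM in Musashi IP. It was higher in all 5 lysates, but the groups overlapped because IgG 2 stood at about the level of Musashi IP 5. The fit gave a log2 fold change of 1.02 ± 0.22 (SE), adjusted p = 0.0132.

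The B-class ephrins span the membrane and can signal back into their own cell. Efnb1 had 9.33, 5.28, 4.43, 5.71 and 4.87 CPM in IgG and 9.13, 9.49, 9.98, 18.5 and 11.8 CPM in Musashi IP, with a log2 fold change of 0.99 ± 0.24 (SE), adjusted p = 0.0179. Lysate 2 showed no rise, and IgG 2 was the highest IgG library. Efnb2, an arterial ligand, had 34.7, 50.2, 29.7, 29.95 and 49.4 CPM in IgG and 41.6, 80.2, 54.6, 102 and 84.4 CPM in Musashi IP, with a log2 fold change of 0.87 ± 0.19 (SE), adjusted p = 0.0129. It was higher in all 5 lysates, although the male IgG libraries lay above Musashi IP 2. Efnb3 did not pass the test, at 2.53 ± 0.462 CPM in IgG and 3.23 ± 0.342 in Musashi IP (mean ± SD, n = 5), log2 fold change 0.36 ± 0.20 (adjusted p = 0.198). Efna5 and Efnb2 kept their calls in all 14 alternative settings. Efna1 lost its call without the block (adjusted p = 0.119), and Efnb1 lost its call without lysate 7 (adjusted p = 0.0616).

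Eph receptors, the tyrosine kinases that bind ephrins, showed no such shift: 1 of 13 was higher, 1 was lower, and the median log2 fold change was -0.17. Epha10, a member without kinase activity, had 6.07, 13.7, 14.7, 10.5 and 13.04 CPM in IgG and 10.2, 19.2, 14.3, 20.96 and 18.4 CPM in Musashi IP. Of the 5 lysates, 4 had a higher Musashi IP value and lysate 5 did not, with a log2 fold change of 0.53 ± 0.16 (SE), adjusted p = 0.0381. Epha6, a receptor mainly of neurons, had 43.9, 12.9, 51.3, 62.9 and 16.9 CPM in IgG and 37.4, 11.2, 43.4, 46.5 and 10.5 CPM in Musashi IP. It was lower in each lysate by a small step, with a log2 fold change of -0.36 ± 0.11 (SE), adjusted p = 0.0431, while its level differed far more between the sexes. Both calls depended on single lysates. Leaving out a lysate gave an adjusted p for Epha10 of 0.0665 without lysate 2, 0.119 without 3, 0.0636 without 6 and 0.137 without 7. For Epha6 it was 0.0538 without lysate 2, 0.167 without 5, 0.055 without 6 and 0.109 without 7.

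Ephb2, which binds B-class ephrins, had 27.4, 26.4, 22.9, 20.98 and 21.1 CPM in IgG and 32.4, 27.7, 27.6, 27.6 and 30.3 CPM in Musashi IP. The groups did not overlap, yet the shift was small and missed the threshold, with a log2 fold change of 0.30 ± 0.11 (SE), adjusted p = 0.0667. Epha4, a receptor for both ephrin classes, had a log2 fold change of 0.40 ± 0.15 (adjusted p = 0.074). The others with a mean of at least 8 CPM were at -0.17 for Epha5, -0.05 for Epha7, -0.28 for Epha1 and -0.26 for Ephb4, the receptor of venous endothelium. None of these 4 passed the test. Epha2 was at -0.58 ± 0.49 (adjusted p = 0.386) with ratios from -2.24 in lysate 2 to 1.501 in lysate 7. Per kb of exon, Epha6 (7.11 ± 4.13 CPM per kb in IgG) and Epha7 (5.68 ± 1.09) led the Eph receptors.

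Netrins are secreted cues related to laminin, and 1 of the 3 tested was higher. Ntn1, the classical netrin, had 24.4, 9.89, 14.7, 10.7 and 6.72 CPM in IgG and 53.8, 15.1, 45.3, 44.7 and 14.7 CPM in Musashi IP. The ratio was above 0 in every lysate, at 1.14, 0.60, 1.61, 2.04 and 1.11 on the log2 scale, with a log2 fold change of 1.33 ± 0.19 (SE), adjusted p = 0.00387. The groups overlapped, since IgG 2 exceeded Musashi IP 3 and 7. Ntn3 and Ntn4 stood at 0.26 ± 0.12 (adjusted p = 0.144) and 0.23 ± 0.17 (adjusted p = 0.311). Without the block the adjusted p of Ntn1 was 0.0528.

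All 6 netrin receptors had positive log2 fold changes, 3 of them past the threshold, and the median was 0.66. Unc5a, of the family that mediates repulsion by netrins, had 49.0, 60.1, 44.8, 36.1 and 40.2 CPM in IgG and 69.6, 74.6, 78.4, 102 and 79.8 CPM in Musashi IP. The groups did not overlap, with a log2 fold change of 0.82 ± 0.17 (SE), adjusted p = 0.0096. Unc5d, of the same family, was among the least abundant, at 1.46, 2.84, 1.17, 2.10 and 3.03 CPM in IgG and 2.76, 5.02, 3.798, 7.09 and 5.98 CPM in Musashi IP. The log2 ratio lay between 0.77 and 1.65 in the 5 lysates, with a log2 fold change of 1.22 ± 0.21 (SE), adjusted p = 0.00595. Neo1 (neogenin), which also binds the repulsive guidance molecules, was the most abundant netrin receptor per kb, at 209, 163, 193, 173 and 189 CPM in IgG and 245, 194, 273, 348 and 269 CPM in Musashi IP. IgG 2 and Musashi IP 3 overlapped, and the fit gave a log2 fold change of 0.50 ± 0.12 (SE), adjusted p = 0.0198. Unc5a and Unc5d kept their calls in all 14 alternative settings, while Neo1 lost its call without lysate 7 (adjusted p = 0.0796).

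Unc5b, a receptor of vascular endothelium, and Dcc, the receptor for attraction to netrins, lay close to the threshold. Unc5b had 5.51, 2.03, 1.69, 2.21 and 2.11 CPM in IgG and 4.32, 5.45, 3.47, 6.40 and 4.42 CPM in Musashi IP. IgG 2 stood at 2.49 times the next IgG library, and the other 4 lysates were all higher in the Musashi IP. The fit gave a log2 fold change of 0.88 ± 0.29 (SE), adjusted p = 0.0506, and without lysate 2 it was 1.28 with an adjusted p of 0.00395. Dcc had 29.2, 63.1, 68.0, 39.3 and 74.2 CPM in IgG and 35.7, 71.9, 77.8, 77.1 and 94.8 CPM in Musashi IP. Each lysate was higher in the Musashi IP, lysate 6 by far the most (log2 ratio 0.97 against 0.19 to 0.35 in the others), with a log2 fold change of 0.40 ± 0.13 (SE), adjusted p = 0.0525. Without lysate 6 the adjusted p of Dcc was 0.0385. Unc5c, at 131 ± 26.8 CPM in IgG, did not pass, at 0.16 ± 0.11 (adjusted p = 0.283). Its sign turned negative when raw library totals replaced TMM factors, which moved the median of all genes by -0.18.

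**Figure D2:**
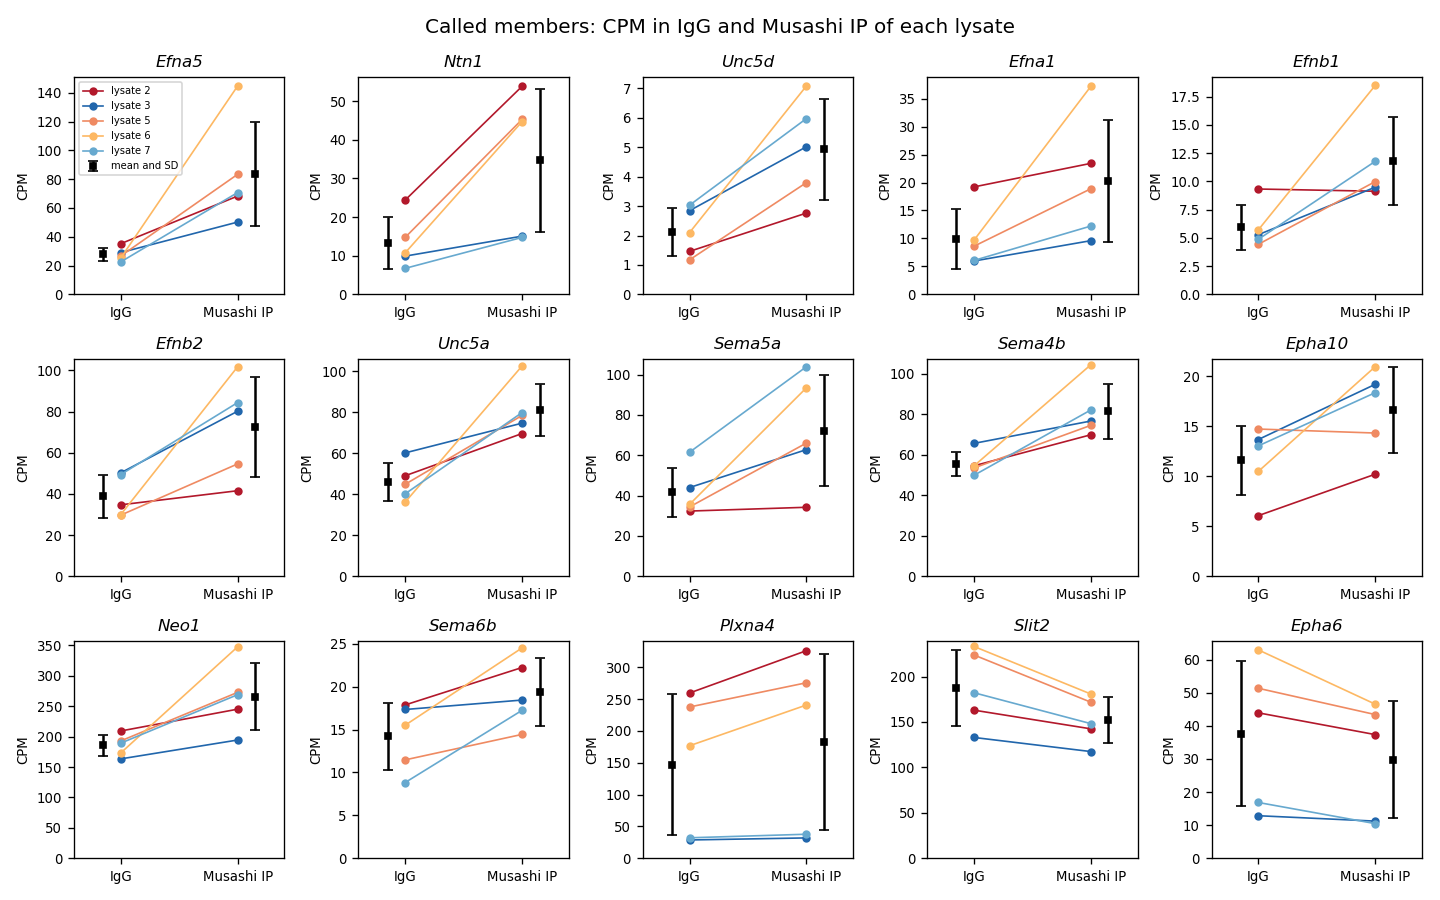
CPM (y axis, from 0) in the IgG and Musashi IP libraries (x axis) of each lysate, joined by a line per lysate, for the 13 higher and 2 lower genes, with black squares at the mean and bars of 1 SD (n = 5). Lines climb steepest in lysate 6 for Efna5 and Efna1, and the levels of Plxna4 and Epha6 split into a high female and a low male set.

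Among the semaphorins, secreted or membrane-bound cues that mostly repel, 3 of 17 tested were higher and none was lower, with a median log2 fold change of 0.06. The 3 were all membrane-bound. Sema5a had 32.4, 44.0, 34.4, 35.7 and 61.5 CPM in IgG and 34.2, 62.8, 66.1, 93.5 and 104 CPM in Musashi IP. It was flat in lysate 2 and higher in the other 4, with a log2 fold change of 0.74 ± 0.17 (SE), adjusted p = 0.0157. Sema4b had 54.5, 65.5, 53.4, 54.4 and 49.8 CPM in IgG and 69.8, 76.6, 74.4, 104 and 82.0 CPM in Musashi IP. Its groups did not overlap, with a log2 fold change of 0.54 ± 0.12 (SE), adjusted p = 0.0141. Sema6b had 17.9, 17.3, 11.5, 15.5 and 8.83 CPM in IgG and 22.2, 18.4, 14.4, 24.5 and 17.2 CPM in Musashi IP. The groups overlapped, with a log2 fold change of 0.47 ± 0.14 (SE), adjusted p = 0.0434. Sema5a lost its call without the block (adjusted p = 0.0822). Sema4b lost its call without lysate 7 (adjusted p = 0.0731) and with an offset for GC content and length (adjusted p = 0.0601). Sema6b lost its call without any of the 5 lysates (adjusted p from 0.0505 to 0.221).

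None of the 5 tested class 3 semaphorins, the secreted class that acts through neuropilins, passed the test, and their median was -0.19. Sema3e, a ligand of Plxnd1, was at 0.36 ± 0.13 (adjusted p = 0.0668), with all 5 lysates above 0. Sema3a, the prototype repellent, was at 0.27 ± 0.16 (adjusted p = 0.241) and Sema3f at -0.21 ± 0.12 (adjusted p = 0.191). Of the membrane-bound semaphorins that did not pass, Sema4f came closest, at 0.43 ± 0.15 (adjusted p = 0.0619). The rest lay near 0, with log2 fold changes of 0.15 for Sema6a, 0.12 for Sema4d, 0.06 for Sema6d, 0.02 for Sema4c, -0.02 for Sema4g, -0.06 for Sema4a and -0.07 for Sema6c. Each of these 7 changed sign under at least 1 alternative setting. Sema7a, which is lipid-anchored, was at -0.52 ± 0.36 (adjusted p = 0.283) with few counts, 3.37 ± 1.57 CPM in IgG.

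Plexins are the signalling receptors of the semaphorins, and 1 of 9 was higher, with a median of 0.16. That was Plxna4, at 259.7, 28.8, 238, 177 and 32.3 CPM in IgG and 326, 32.1, 276, 241 and 37.8 CPM in Musashi IP. Each lysate was higher by a small step, although female and male levels were far apart, with a log2 fold change of 0.28 ± 0.09 (SE), adjusted p = 0.0461. This was the call nearest to the threshold: it remained in 2 of the 14 alternative settings, and the adjusted p was 0.0978 without lysate 2, 0.164 without 3, 0.098 without 5 and 0.228 without 7. Plxnb1, the most abundant of the set per kb, had 259, 361, 284, 297 and 289 CPM in IgG and 318, 347, 266, 266 and 333 CPM in Musashi IP. Its groups overlapped over nearly their whole range, at 0.04 ± 0.10 (adjusted p = 0.787). Plxnb2 was at 0.27 ± 0.10 (adjusted p = 0.0724) and Plxnc1 at 0.36 ± 0.16 (adjusted p = 0.119); without lysate 2 their adjusted p fell to 0.0478 and 0.0119. Plxna1 and Plxna2 were at 0.16 and 0.17, and Plxna3 and Plxnd1 at -0.19 and -0.40; none passed.

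The neuropilins, co-receptors for class 3 semaphorins and for vascular growth factors, did not pass, at 0.05 ± 0.20 (adjusted p = 0.872) for Nrp1 and 0.37 ± 0.32 (adjusted p = 0.399) for Nrp2. Nrp2 had 60.2, 40.4, 18.4, 29.5 and 37.4 CPM in IgG and 22.0, 61.1, 29.2, 59.0 and 68.2 CPM in Musashi IP. Lysate 2 lay far below the rest: its log2 ratio was -1.44, against 0.60 to 0.996 in the other 4 lysates. Without lysate 2 the log2 fold change of Nrp2 was 0.79 (adjusted p = 0.00332).

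Slits are large secreted cues that repel through the Robo receptors. Slit2 was the 1 ligand of 28 that was lower, at 163, 133, 224, 233 and 182 CPM in IgG and 142, 117, 172, 181 and 148 CPM in Musashi IP. The step was small, was seen in each of the 5 lysates and was within the spread between lysates, with a log2 fold change of -0.28 ± 0.08 (SE), adjusted p = 0.0372. The call was lost without lysate 2 (adjusted p = 0.0548), 5 (0.271) or 7 (0.093). It was also lost with no filter on low counts, without the block and with the offset for GC content and length. Slit1 did not pass, at 0.02. All 4 Robos had negative log2 fold changes, with TMM scaling and in all 14 alternative settings. With TMM scaling none passed, and the median was -0.42. Robo2 and Robo1, the more abundant Robos per kb, were at -0.18 ± 0.09 (adjusted p = 0.145) and -0.11 ± 0.09 (adjusted p = 0.358). With raw library totals both were lower, at an adjusted p of 0.0318 for Robo2 and 0.0485 for Robo1.

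Robo3, the described Musashi target, was scarce, at 8.20, 2.44, 3.26, 6.99 and 1.98 CPM in IgG and 2.04, 2.73, 1.84, 3.54 and 1.82 CPM in Musashi IP. IgG 2 and IgG 6 were the highest libraries, and the Musashi IP libraries all lay between 1.82 and 3.54 CPM. The fit gave a log2 fold change of -0.82 ± 0.30 (SE), adjusted p = 0.0702, so it was not higher in the Musashi IP at this depth. It was called lower in 6 of the 14 alternative settings: library totals (adjusted p = 0.0300), no filter on low counts (0.0193), the 2 CPM filter (0.0370), protein-coding genes only (0.0406), the length and GC offset (0.0302) and without lysate 3. Without lysate 3 the value was -1.13 (adjusted p = 0.0301), and without lysate 2 it was -0.50 (adjusted p = 0.164). Robo4, the Robo of endothelium, had 25.1, 4.60, 5.73, 12.7 and 5.01 CPM in IgG and 4.56, 9.05, 4.77, 8.17 and 3.12 CPM in Musashi IP, with a log2 fold change of -0.65 ± 0.40 (SE), adjusted p = 0.241. Without lysate 3 it was -1.13 (adjusted p = 0.0403), and without lysate 2 it was -0.16.

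Of the 8 endothelial markers, 7 were more than 1.5 times as high in IgG 2 as in any other IgG library, as were 9 of the 62 guidance genes (Unc5b, Efna1, Robo4, Sema3d, Plxnd1, Ephb4, Epha2, Ntn1 and Efnb1), beside 8.33% of protein-coding genes. These were named after their values were seen. Plxnd1, an endothelial plexin, had 77.2, 30.6, 28.0, 39.7 and 29.9 CPM in IgG and 23.3, 36.6, 25.1, 33.3 and 27.3 CPM in Musashi IP. Apart from IgG 2, its libraries lay between 23.3 and 39.7 CPM. Leaving out lysate 2 moved Plxnd1 from -0.40 to -0.07, Robo4 from -0.65 to -0.16 and Ephb4 from -0.26 to -0.05. The part of endothelial RNA in these values was not tested.

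**Figure D3:**
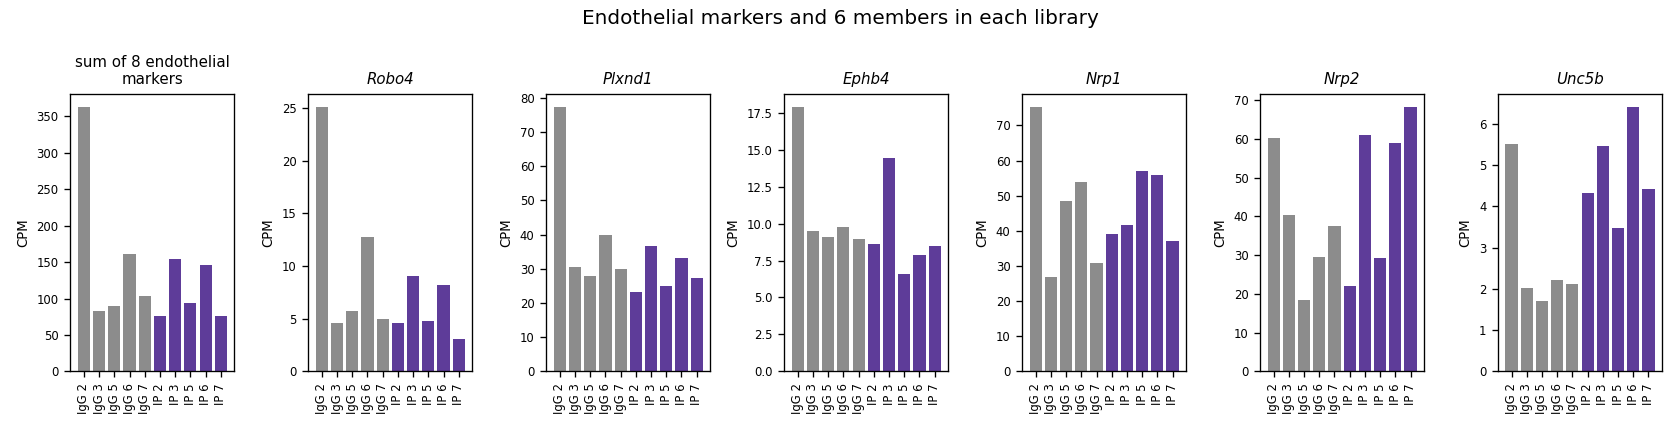
CPM (y axis, from 0) in each of the 10 libraries (x axis; grey, IgG; purple, Musashi IP) for the sum of 8 endothelial markers and for 6 guidance genes expressed in vessels. IgG 2 holds the tallest bar for the marker sum (362 CPM), Robo4, Plxnd1, Ephb4 and Nrp1, but not for Nrp2 or Unc5b. Other vessel genes are not drawn. Of these, Efnb2 had 34.7 CPM in IgG 2 against up to 50.2 in the other IgG libraries, and Efna1 had 19.2 against up to 9.67.

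Lysate 6 gave the highest ratio for 12 of the 13 higher genes and lysate 7 for the remaining 1. Lysate 3 gave the lowest ratio for 7 and lysate 2 for 5. The median log2 ratio of the 13 was 0.33, 0.51, 0.87, 1.498 and 0.93. All 3656 protein-coding genes that were higher had medians of 0.45, 0.51, 0.86, 1.57 and 0.81. In both sets lysates 2 and 3 were the lowest and lysate 6 the highest.

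Several guidance mRNAs differed between the sexes in the level recovered in the pull-downs, whereas the Musashi effect did not pass a test of difference. Levels in the tissue itself were not measured. Within the IgG libraries, Plxna4, Epha6, Sema3a and Nrp1 were higher in females and none was higher in males. Over protein-coding genes 4.7% differed in either direction, 2.57% with females higher and 2.13% with males higher. Within the Musashi IP libraries the female-higher genes were Plxna4, Epha6, Sema3a and Ntn1, beside 3.05% of protein-coding genes in either direction, 1.99% with females higher and 1.06% with males higher. The values of Plxna4 given above were 177 to 260 CPM in the female IgG libraries and 28.8 and 32.3 CPM in the male ones. The female minus male log2 difference was 2.87 ± 0.21 (SE) in IgG (adjusted p = 2.49e-05) and 2.997 ± 0.29 in Musashi IP (adjusted p = 0.000615). Epha6 differed by 1.82 ± 0.23 in IgG and 1.94 ± 0.24 in Musashi IP (adjusted p = 0.000961 and 0.00186). For both, the female and male ranges did not overlap.

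Sema3a, a ligand that signals through Nrp1 and plexin-A receptors, had 39.9, 11.8, 32.1, 25.9 and 12.3 CPM in IgG and 36.0, 12.1, 40.0, 50.6 and 13.1 CPM in Musashi IP. The female libraries lay above the male ones, by 1.43 ± 0.24 in IgG (adjusted p = 0.00595) and 1.72 ± 0.24 in Musashi IP (adjusted p = 0.00383). Nrp1 had 75.2, 26.8, 48.6, 53.8 and 30.8 CPM in IgG and 39.0, 41.8, 57.0, 55.9 and 37.2 CPM in Musashi IP. It was higher in females in IgG by 1.03 ± 0.22 (adjusted p = 0.0206), but its Musashi IP libraries overlapped (adjusted p = 0.526). Ntn1 was higher in females in Musashi IP by 1.67 ± 0.24 (adjusted p = 0.00481), and by 0.99 ± 0.36 in IgG (adjusted p = 0.175). Leaving out a male lysate ended some calls in IgG: Sema3a was at 0.12 without lysate 3 and 0.101 without 7, Nrp1 at 0.241 and 0.163, and Epha6 at 0.0525 without lysate 3 (adjusted p). In Musashi IP, Ntn1 was at 0.053 without lysate 7. The lone male library is then assumed to vary like the female ones.

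**Figure D4:**
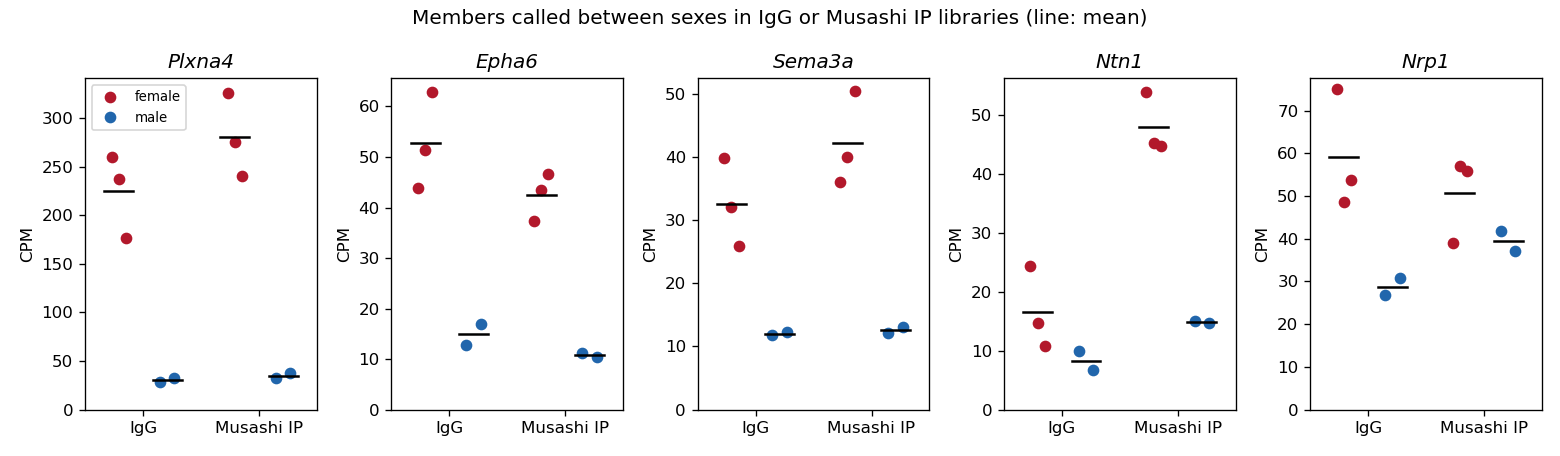
CPM (y axis, from 0) of 5 guidance genes in female (red, 3 lysates) and male (blue, 2 lysates) libraries of IgG and Musashi IP (x axis), with a line at each mean. The female and male points of Plxna4, Epha6 and Sema3a are apart in both kinds of library, and those of Nrp1 are apart in IgG only.

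Marker levels that did not overlap between the sexes in IgG included some higher in females and some higher in males. Prl, the hormone of lactotropes, ran from 12054 to 39299 CPM in the female IgG libraries and from 1538 to 3071 CPM in the male ones. The summed level of 9 mural and fibroblast markers was 599.9 to 1304 CPM in female IgG and 295 to 407 CPM in male IgG. The sum of 6 stem or progenitor markers was lower in females, at 64.9 to 87.8 CPM in female IgG and 105 to 116 CPM in male IgG. The part of cell makeup in the sex differences was not tested. Each lysate was a separate occasion, so occasion and lysate cannot be told apart. Plxna4 has antisense neighbours, Plxna4os1, Plxna4os2 and Plxna4os3, and Plxna4os2 differed by 3.06 in IgG (adjusted p = 4.95e-05). Plxna4os3 overlaps 110 nt of the Plxna4 exons (0.78%), and exons of Epha6, Epha10 and Unc5a overlap a gene on the opposite strand by 2.02%, 1.10% and 0.816%. Whether the counting used strand is not given in the sources used here.

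The female minus male difference of the Musashi effect passed the edgeR test at an adjusted p under 0.05 for 0 of the 62 genes and 0 of 14202 protein-coding genes (0%). The smallest adjusted p among the 62 was 1, and 3 had an unadjusted p under 0.05, as had 0.683% of protein-coding genes. These were Sema7a, with a difference of -1.61 ± 0.52 (SE), Robo3, with -1.30 ± 0.50, and Ephb4, with -0.88 ± 0.36. The Robo3 effect was -1.27 ± 0.29 in females and 0.03 ± 0.40 in males. For Ntn1 it was 1.59 ± 0.21 in females and 0.86 ± 0.27 in males, and the difference of 0.73 ± 0.34 did not pass. Where nothing differs, a test gives a share of small unadjusted p near its threshold, and 0.683% lies far below that. The test was thus conservative, and the lack of calls does not show that the effect was alike in the sexes.

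Further along the pathway, 19 other cues and co-receptors were tested, with a median log2 fold change of -0.01. Of these, 6 were higher (31.6%) and 2 lower, beside 25.7% and 4.01% of protein-coding genes. The higher ones were Flrt1, of a family that binds Unc5 receptors (1.01 ± 0.20, adjusted p = 0.00904), Rgma, a Neo1 ligand (0.99 ± 0.21, adjusted p = 0.0126), the adhesion molecules Chl1 (0.64 ± 0.18, adjusted p = 0.0327) and Cntn1 (0.59 ± 0.14, adjusted p = 0.0182), Ptprf and Rgmb. Dscam, a netrin receptor (-0.29 ± 0.09, adjusted p = 0.0447), and Ptprd (-0.28 ± 0.08, adjusted p = 0.0321) were lower. Of 55 cytoplasmic effectors, 16 were higher (29.1%) and 0 lower, with a median of 0.18, again near the 25.7% of protein-coding genes. The largest were Pak3, a kinase downstream of Rac and Cdc42 (1.5 ± 0.25, adjusted p = 0.00525), Pak2 (1.36 ± 0.17, adjusted p = 0.00336), the kinase Gsk3b (1.29 ± 0.19, adjusted p = 0.00399) and the actin-severing Cfl1 (1.21 ± 0.23, adjusted p = 0.00737). Pak3 rose from 179.7 ± 118 to 575 ± 436 CPM and Cfl1 from 41.3 ± 14.4 to 94.4 ± 25.2 (mean ± SD, n = 5).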

How the data were processed

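The authors deposited raw read counts per Ensembl gene, in whole numbers and without normalization. Per the submitters' processing notes, the tools were FastQC 0.11.8, Trimmomatic 0.39 and STAR 2.7.1a, with the build GRCm39. The libraries were made with a stranded total RNA kit, per the labels' protocols. No counting program, annotation release, strand setting or rule for reads with several matches is named in those sources. Counts are not independent molecules, since no molecular identifiers are described. In the shallowest library, IgG 3, 1 count equals 0.135 CPM with TMM factors.

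Symbols, exon lengths and UTRs came from GENCODE M21 on GRCm38, matched by gene ID for 52135 of the 55416 genes (94.1%). All tests ran in R 4.3.3 with edgeR 4.0.16 (limma 3.58.1 and DESeq2 1.42.0 for alternatives), over the 20550 genes kept by filterByExpr. Library sizes were the sums over those genes, with TMM factors, and p-values were adjusted by Benjamini-Hochberg over all genes tested. Musashi IP against IgG had lysate as blocking factor (leaving 4 degrees of freedom), since the protocol divided each lysate. Deviations of same-lysate libraries from their group means correlated at 0.526, 0.680, 0.603, 0.191 and 0.778. The highest correlation with another lysate was lower than these except for lysate 6, where it was 0.417. The difference of the effect between sexes kept the block (3 degrees of freedom left). The sexes were set against each other, with no block, inside each antibody group. The scripts were tested on simulated data. The SE is the log2 fold change divided by the square root of F, and log2 ratios of single lysates used a prior count of 2.

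The members and gene lists were chosen with earlier results of these data known. Named were all called members, uncalled members with a mean of at least 8 CPM, and Robo3, with the extremes of the rest. Up to 4 called genes were named from each further list, and for sexes the called members or the 3 of smallest p. The 14 alternatives changed the scaling, tool, filter, block, GC and length offset, or left out a lysate. A further male pair of libraries was not analysed here. The result of 1 marker list is not reported here. That lysates are separate sets of mice is taken from the protocol's separate occasions.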

Additional observations from a re-analysis of the deposited data

Results flagged for a closer look

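In 54 named genes, 3 sets of 5 values each (IgG, Musashi IP and the lysate ratios) were searched for a value far from the rest, and 19 of 162 sets held one. For independent sets of normal values the rule would flag about 1 in 20. The CPM values were not shown to be normal, and the ratios reuse them. The count of 19 can therefore not be set against that rate. IgG 2 held 5: Efna1 at 19.2 CPM, Efnb1 at 9.33, Ephb4 at 17.9, Plxnd1 at 77.2 and Unc5b at 5.51, each the highest IgG value. The ratio of lysate 2 was lowest in another 5: Nrp2 at -1.44, Plxnc1 at -0.378, Plxnd1 at -1.72, Sema6d at -0.615 and Unc5b at -0.333 (log2).

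Musashi IP 6 was highest for Efnb1 (18.5 CPM) and Plxna1 (81.3 CPM), and the lysate 6 ratio was highest for Dcc (0.968) and Unc5c (0.599). Musashi IP 3 was highest for Ephb4 (14.4 CPM) and Sema7a (4.69 CPM). Musashi IP 7 was highest for Sema3e (15.8 CPM). IgG 7 was lowest for Sema4d (41.0 CPM). The lysate 3 ratio of Robo2 was 0.0334, the 1 value above 0 for that gene.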

How the results depend on the processing

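The calls of Efna5, Efnb2, Unc5a and Unc5d held under all 14 alternatives; the other 11 called genes lost the call under at least 1. Raw library totals gave 10 higher and 6 lower members and 4107 lower genes in all, DESeq2 gave 12 and 1, no filter on low counts gave 14 and 1, and an offset for length and GC content with the lysate block gave 10 and 6. A filter at 2 CPM gave 3214 lower genes in all. Higher semaphorins were 1 with the offset. Higher Eph receptors were 0 with library totals, with the 2 CPM filter, with protein-coding genes only and with the offset. Between sexes, no filter on low counts gave 14 members in IgG and 8 in Musashi IP. For this setting, and for the sex comparisons with a lysate left out below, the share over all genes was not counted. Those member counts therefore cannot be set against a background. Counting the core TAG in place of the motifs gave a median of 9.60 per kb.

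Without the lysate block, 7 members were higher and 0 lower, with 1 semaphorin and 0 Eph receptors, and 2407 genes in all were higher and 176 lower. Sema4g was then at 0.011 and Nrp1 at -0.029.

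Leaving out 1 lysate gave 7 to 15 higher and 0 to 4 lower members, 2288 to 4188 higher and 182 to 2100 lower genes in all, 1 to 3 semaphorins, 3 to 4 ephrins, 3 to 5 netrins and netrin receptors and 0 to 1 Eph receptors. The upper counts of 15 members and 3 semaphorins, without lysate 2, include Sema3c, which had too few counts to be tested with all 5 lysates. Higher members were fewest without lysate 7, and lower genes in all were fewest without lysate 5. Between sexes it gave 1 to 9 members in IgG, fewest without lysate 3, and 3 to 7 in Musashi IP.

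Uncalled genes changed sign in places. With library totals, log2 fold changes were -0.14 for Nrp1, -0.022 for Plxna1, -0.012 for Plxna2, -0.14 for Plxnb1, -0.16 for Sema4c, -0.054 for Sema4d, -0.030 for Sema6a, -0.11 for Sema6d, -0.15 for Slit1 and -0.015 for Unc5c. The 2 CPM filter gave -0.052 for Nrp1, -0.059 for Plxnb1, -0.074 for Sema4c, -0.032 for Sema6d and -0.069 for Slit1, and protein-coding genes only gave -0.057 for Nrp1, -0.062 for Plxnb1, -0.078 for Sema4c, -0.036 for Sema6d and -0.072 for Slit1. The offset gave -0.0013 for Nrp1, -0.059 for Plxna1, -0.17 for Plxnb1, -0.22 for Sema4c, -0.11 for Sema4d, -0.033 for Sema6a, -0.10 for Sema6d and -0.21 for Slit1. Over single lysates left out, the ranges were -0.14 to 0.023 for Epha7, -0.19 to 0.29 for Nrp1, -0.074 to 0.12 for Plxnb1, -0.17 to 0.028 for Sema4a, -0.064 to 0.061 for Sema4c, -0.15 to 0.11 for Sema4g, -0.22 to 0.085 for Sema6c, -0.061 to 0.23 for Sema6d and -0.11 to 0.11 for Slit1. The cause was not tested. Low counts limit what could be seen for Robo3, Unc5b, Sema7a and Epha2.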

Other observations

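Markers of other cells gave these values in the Musashi IP against IgG comparison of edgeR. Over protein-coding genes 25.7% were higher and 4.01% lower, and these short lists were not tested as sets. Of the stem or progenitor markers 3 of 6 were higher: Sox9 (log2 fold change 1.24, adjusted p = 0.0211), Aldh1a2 and Lgr4. Among 6 tested hormone genes only Fshb, a gonadotropin subunit, was higher (2.28, adjusted p = 0.00492). None of 8 endothelial and 9 mural and fibroblast markers, nor of 2 tested pituicyte markers, passed. Of 4 tested erythroid markers 3 were lower, and of 9 immune markers 2 (Ptprc and Csf1r) were lower.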
